A study of Mus musculus with 12 samples.

Results

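The genes described here were the chemokines, interleukins, colony-stimulating factors, TNF superfamily ligands and their like-named receptors in murine BrafV600E melanoma cells with or without the enzymes of prostaglandin E2 synthesis. Members were taken by name from the deposited gene table: every gene named Ccl, Cxcl, Il or Tnfsf with a number, *Cx3cl1*, *Csf1* to *Csf3* and genes whose names begin with these, plus *Lif*, *Osm*, *Tnf* and *Mif*. The rule found 141 of 30705 genes, of which 32 reached a mean of at least 1 RPKM (reads per kilobase of transcript, scaled to sequencing depth) in at least 1 of the 4 groups, and the other 109 are called silent below. RNA was sequenced from 4 lines in culture, with 3 samples each: scramble control cells (genotype label Control), and cells in which CRISPR/Cas9 was directed at ptgs1 (coding for COX-1, *ptgs1*-KO), ptgs2 (COX-2, *ptgs2*-KO) or ptges (mPGES-1, *ptges*-KO). All 4 lines descend from melanoma cells of a C57BL/6 mouse that was Braf+/LSL-V600E, carried *Tyr*::CreERT2+/o and was p16INK4a-/-, so the scramble cells carry the Braf allele and the p16INK4a deletion too, and Cre was driven by the tyrosinase promoter. The labels number the samples of a line without stating separate cultures, and the study describes them as independent samples in its text and refers to subclones in a legend. The p-values therefore measure the spread between these samples, which may be technical. The study selected its knockout cells with puromycin and subcloned them by limiting dilution. Loss of an enzyme and other differences between the lines therefore cannot be told apart here.

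Chemokines are small secreted proteins that guide leukocytes along gradients, and *Cx3cl1* is unusual in being made as a membrane-anchored protein with a chemokine head. Interleukins and colony-stimulating factors are signals between immune and stromal cells, which act through receptors built from a ligand-binding chain and a shared signaling chain, such as *Il1rap* for the IL-1 family, *Il6st* (gp130) for the IL-6 family and *Il10rb* for the IL-10 family. Tumor cells can both make such signals, drawing in or feeding macrophages through *Ccl2* and *Csf1*, and carry the receptors. Prostaglandin E2, made from arachidonic acid by a cyclooxygenase and then by a prostaglandin E synthase, is known as a regulator of cytokine transcription in many cell types.

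The targeted genes were checked against the labels. *Ptgs1* mRNA fell from 151 ± 11.5 RPKM (SD, n = 3) in scramble cells to 16.0 ± 1.49 in *ptgs1*-KO cells, and *Ptgs2* mRNA fell from 761 ± 14.2 to 79.8 ± 4.38 in *ptgs2*-KO cells. *Ptges* mRNA was 77.6 ± 2.43 RPKM in scramble cells, 37.1 ± 3.37 in *ptges*-KO cells and also lower in *ptgs1*-KO cells, at 54.5 ± 2.76 (log2 fold change -0.50, limma, adjusted p = 0.0011). *Ptgs2* was lower in *ptgs1*-KO cells too, at 598 ± 86.4 RPKM (-0.36, limma, adjusted p = 0.0386), a call that was lost without *ptgs1*-KO replicate 3 (-0.24, adjusted p = 0.0784). The *ptgs1*-KO replicate 3 library stood apart from the others, with 13.5% of its summed values in the ribosomal RNA entries *Rn45s* and *AK155692* against 0.528% to 4.79% in the other samples. Leaving it out ended 1 member call between *ptgs1*-KO and scramble cells, that of *Csf1*, and values without it stand beside the calls between these lines. Of 8 melanocyte lineage markers, 5 (*Sox10*, *Dct*, *Tyrp1*, *Mlana* and Kit) were listed at 0 in all samples and only *Mitf* exceeded 1 RPKM in a group mean. Of 8 macrophage and monocyte markers, 7 stayed under 1 RPKM in all group means, with Emr1, *Lyz2* and *Aif1* at 0, and *Cd14* stood at 5.69 to 7.78 RPKM in group means, while all 6 endothelial markers were under 1 RPKM. The summed level of the macrophage list ran from 5.83 to 9.44 RPKM over the 12 samples. The fibroblast list of 7 genes, with *Dcn* and *Lum* at 0 and *Pdgfra* and *Pdgfrb* above 1 RPKM, moved with the lines: its sum was 17.5 to 24.0 RPKM in scramble, 23.9 to 35.4 in *ptgs1*-KO, 9.75 to 11.5 in *ptgs2*-KO and 9.56 to 13.1 in *ptges*-KO samples, and its part in the results was not tested. As these were bulk samples, fewer cells of a kind and less RNA per cell cannot be told apart.

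The melanoma cells expressed a narrow part of the cytokine repertoire, at levels from about 1 to over 1000 RPKM. The share of members at or above 1 RPKM was 22.7%, against 38% of all genes in the table. Among ligands 16 of 91 were expressed and among receptors 14 of 43, and the other expressed members were the interleukin-18 antagonist *Il18bp* and the amino acid oxidase *Il4i1*. *Mif*, a cytokine that is stored ready-made in many cells, was the most abundant member with a mean of 1010.2 RPKM over the 12 samples, ranking 94 among all genes. *Csf1*, the macrophage growth factor, followed at 416 RPKM (rank 257), then *Il1rl1*, the receptor of interleukin-33 (also called ST2), at 361 RPKM (rank 301), and *Il6st* at 191 RPKM (rank 640). *Il1rap*, *Il17rc*, *Ccl2*, *Il18rap*, *Cx3cl1* and *Il34* lay between 30.0 and 99.4 RPKM. Levels are per length of transcript, so they can be compared between genes, within the limits of a single length per gene. The plot of levels by sample gives all 32 genes.

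**Figure D1:**
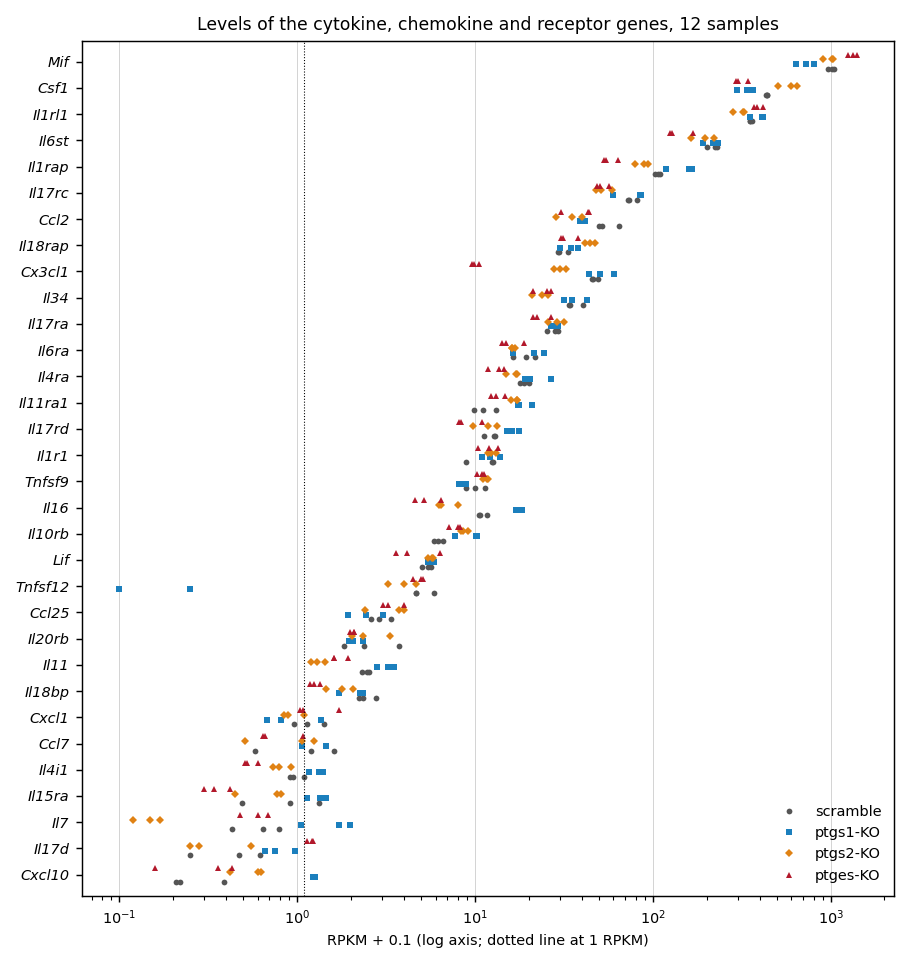
RPKM + 0.1 on a log axis (horizontal) of the 32 expressed members (vertical, ordered by mean), with 1 symbol for each of the 12 samples, colored by line, and a dotted line at 1 RPKM. *Mif* sat near 1000 RPKM in all 4 lines, *Tnfsf12* was near 0 only in *ptgs1*-KO samples, and the *ptges*-KO samples of *Cx3cl1* lay apart near 10 RPKM.

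Most members were silent. Of these 109, 49 were listed at 0 in all 12 samples, among them *Il1b*, *Il10*, *Il2*, *Il3*, *Il1rn*, *Osm* and 10 of 14 CXC and CX3C chemokines (*Cxcl2*, *Cxcl3*, *Cxcl5*, *Cxcl9*, *Cxcl11*, *Cxcl12*, *Cxcl13*, *Cxcl14*, *Cxcl15* and *Cxcl17*). The other 60 had some value above 0 in at least 1 sample but a mean under 1 RPKM in all groups. In this class the highest group mean was 0.157 RPKM for *Il6*, 0.14 for *Il18*, 0.103 for *Csf2*, 0.03 for *Tnf* and 0.027 for *Il33*, the ligand of the abundant *Il1rl1*. *Csf1r*, the receptor of *Csf1* and *Il34*, did not exceed a group mean of 0.02 RPKM. By family, 17 of 20 CC chemokines, 10 of 12 TNF superfamily members, 7 of 8 colony-stimulating factor genes and 63 of 84 interleukin genes were silent. The boundary of 1 RPKM fell between *Il17d*, with a highest group mean of 1.09 RPKM, *Ccl7* (1.10), *Cxcl10* (1.15) and *Cxcl1* (1.18) just inside and *Il15* (0.763), *Il12rb2* (0.53), *Ccl11* (0.523) and *Il24* (0.42) just outside. A count of 3 reads over a transcript of 1 kb corresponded to 0.175 to 0.223 RPKM if the values are RPKM as named, so most silent members were not detectable at this depth rather than shown to be absent.

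Of the 32 expressed members, 25 averaged 1 RPKM or more across all samples and were tested with limma on log2(RPKM + 1), and *Ccl7*, *Cxcl1*, *Cxcl10*, *Il15ra*, *Il17d*, *Il4i1* and *Il7* were below this filter. A call means an adjusted p (Benjamini-Hochberg, across the 11282 genes that entered the model) under 0.05. In *ptgs1*-KO cells 7 of 25 tested members changed against scramble cells, 4 higher and 3 lower, where 9.26% of all genes tested were called, 4.65% higher and 4.61% lower. In *ptgs2*-KO cells 10 of 25 changed, 4 higher and 6 lower, beside 11.1% of all genes, 5.97% higher and 5.17% lower. In *ptges*-KO cells 13 of 25 changed, 1 higher and 12 lower, beside 26.3% of all genes, of which 11.9% were called higher and 14.4% lower. The 3 comparisons share the scramble samples. The median log2 fold change of the tested members was 0.06 for *ptgs1*-KO, -0.18 for *ptgs2*-KO and -0.24 for *ptges*-KO cells, beside medians over all genes of 0.01, 0.01 and -0.03. The samples of the groups did not overlap for 10, 14 and 15 of the 25 members in these comparisons, beside 26.9%, 35.1% and 43.3% of all genes. Without *ptgs1*-KO replicate 3 the *ptgs1*-KO count was 6, 4 higher and 2 lower, beside 8.93% of all genes, 653 called higher and 355 lower. Without scramble replicate 1 or without *ptgs2*-KO replicate 1 the *ptgs2*-KO count was 6. In these fits 722 and 822 of the 11282 genes were called, beside 1257 with all samples. Over the 4 lines together, 19 of 25 members differed by limma's F statistic, beside 38.6% of all genes. *Ccl25*, *Lif*, *Il1r1*, *Il6ra*, *Il17ra* and *Il20rb* passed no test in any comparison.

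**Figure D2:**
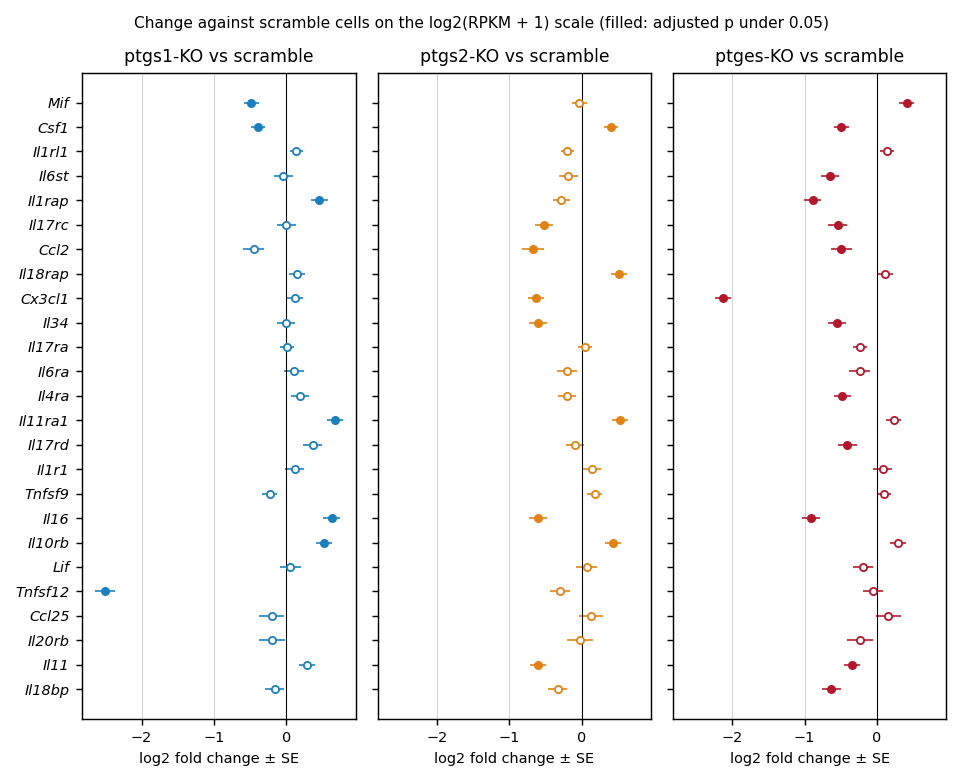
Log2 fold change against scramble cells with its SE (horizontal, log2(RPKM + 1) scale) of the 25 tested members (vertical), 1 panel for each knockout line, with filled symbols for adjusted p under 0.05. The 12 members lower in *ptges*-KO cells lie left of 0 with *Cx3cl1* at -2.13, *Tnfsf12* stands at -2.51 in *ptgs1*-KO cells alone, and *Il16* lies right of 0 in *ptgs1*-KO cells and left of 0 in the other lines.

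*Cx3cl1*, the ligand of the *Cx3cr1* receptor on monocytes, T cells and NK cells (mm10, chromosome 8, 94772009 to 94782427, plus strand), had the largest fall of any tested member in *ptges*-KO cells. Its mRNA level was 45.7, 49.2 and 45.4 RPKM in the scramble samples, 60.1, 50.1 and 43.6 in the *ptgs1*-KO samples, 32.4, 30.0 and 27.6 in the *ptgs2*-KO samples and 10.4, 9.80 and 9.56 in the *ptges*-KO samples. The *ptges*-KO samples were lowest, the *ptgs2*-KO samples lay between them and the rest, and the *ptgs1*-KO and scramble samples overlapped. Against scramble cells the log2 fold change was -2.13 ± 0.11 (SE) in *ptges*-KO cells (limma, adjusted p = 2.4e-08) and -0.63 ± 0.11 in *ptgs2*-KO cells (adjusted p = 0.00228). In *ptgs1*-KO cells it was 0.12 (limma, adjusted p = 0.544), or 0.23 without replicate 3 (adjusted p = 0.172). The difference of *ptges*-KO from *ptgs2*-KO cells was itself past the threshold, at -1.50 ± 0.11 (limma, adjusted p = 5.8e-07). The genes on either side, the chemokines *Ccl22* and *Ccl17*, did not exceed 0.047 RPKM in any group mean, and *Cx3cr1* itself did not exceed 0.04 RPKM.

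*Csf1* (chromosome 3, 107741048 to 107760469, minus strand) moved in opposite directions in *ptgs2*-KO cells and in the other knockout lines. The values were 433, 438 and 438 RPKM in scramble, 364, 338 and 298 in *ptgs1*-KO, 643, 597 and 507 in *ptgs2*-KO and 342, 300.2 and 293 in *ptges*-KO samples. Every *ptgs2*-KO sample was above and every *ptgs1*-KO and *ptges*-KO sample below the scramble samples, and the latter knockout lines overlapped each other. The log2 fold change was 0.41 ± 0.10 in *ptgs2*-KO cells (limma, adjusted p = 0.0204), -0.49 ± 0.10 in *ptges*-KO cells (adjusted p = 0.00374) and -0.39 ± 0.10 in *ptgs1*-KO cells (adjusted p = 0.0288). The *ptgs1*-KO call was lost without any 1 of the scramble replicates or *ptgs1*-KO replicates 2 or 3 (-0.31, adjusted p = 0.0827 without replicate 3, with 0.00354 to 0.0867 over the alternatives). In *ptgs2*-KO cells the call was lost without any 1 of the scramble replicates or *ptgs2*-KO replicates 1 or 2 (log2 fold change 0.33 to 0.51, adjusted p 0.0036 to 0.0805). *Il34* (chromosome 8, 110741829 to 110805924, minus strand), the other ligand of the *Csf1r* receptor, was lower in both *ptgs2*-KO and *ptges*-KO cells. It stood at 40.3, 33.7 and 33.9 RPKM in scramble, 34.9, 42.4 and 31.4 in *ptgs1*-KO, 20.9, 23.8 and 25.5 in *ptgs2*-KO and 26.5, 21.2 and 25.4 in *ptges*-KO samples. No sample of the latter pair of lines reached the lowest scramble sample, and their own values overlapped. The fall was -0.60 ± 0.12 in *ptgs2*-KO (limma, adjusted p = 0.00811) and -0.55 ± 0.12 in *ptges*-KO cells (adjusted p = 0.0063). Thus, in *ptgs2*-KO cells the ligands of *Csf1r* moved in opposite directions, *Csf1* up and *Il34* down, and in *ptges*-KO cells both were lower.

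*Mif* (chromosome 10, 75859353 to 75860240, minus strand) rose in *ptges*-KO cells, the only 1 of the 25 tested members called higher there in the model of all samples (3 were with median ratio scaling), and fell in *ptgs1*-KO cells. Its level was 1011, 1035 and 963 RPKM in scramble, 799, 727 and 638 in *ptgs1*-KO, 907, 1017 and 1034 in *ptgs2*-KO and 1410.4, 1249.8 and 1331 in *ptges*-KO samples. The *ptgs2*-KO samples overlapped the scramble samples, and the other lines did not. The log2 fold change was 0.41 ± 0.10 in *ptges*-KO (limma, adjusted p = 0.00828) and -0.48 ± 0.10 in *ptgs1*-KO cells (adjusted p = 0.00671, and -0.40 without replicate 3, adjusted p = 0.0186, within 0.00244 to 0.0363 over the alternatives). The rise in *ptges*-KO cells was not called after quantile normalization, with 0.21 as the lowest log2 fold change and 0.119 as the highest adjusted p over the alternatives. Processed *Mif* pseudogenes could share reads with *Mif*, and how such reads were counted is not given in the sources used here.

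**Figure D3:**
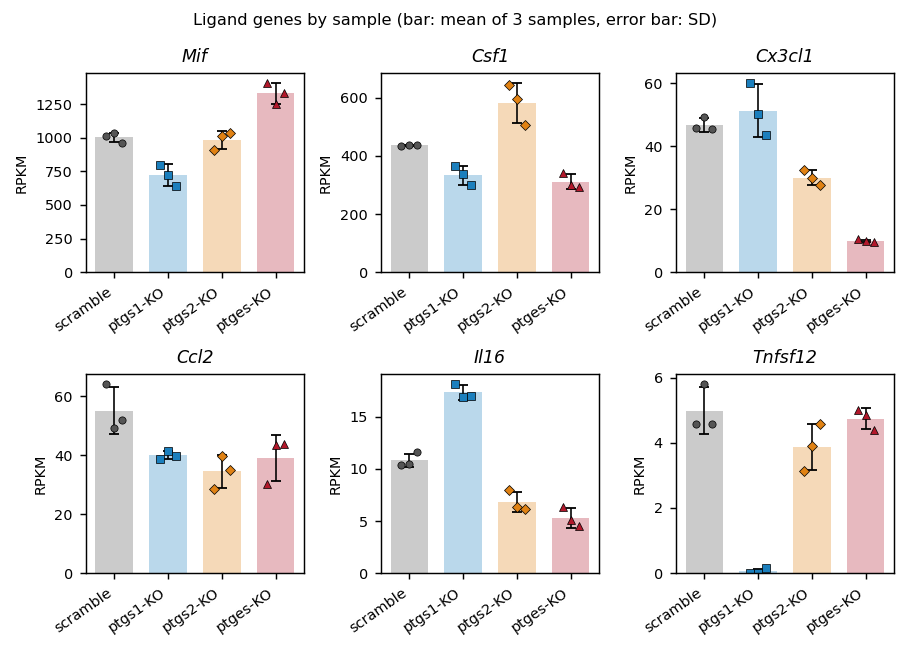
RPKM (vertical, from 0) of 6 ligand genes in the 4 lines (horizontal), with a symbol for each sample, bars for the mean of 3 samples and error bars for the SD. *Cx3cl1* falls in steps from scramble to *ptgs2*-KO to *ptges*-KO cells, *Csf1* is highest in *ptgs2*-KO cells and *Mif* in *ptges*-KO cells, and the *Tnfsf12* bar is near 0 in *ptgs1*-KO cells.

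The windows around the start sites of these strongly expressed or changed ligand genes are shown because the levels of all 3 differ between the lines, beside that of *Cxcl1*, a neutrophil chemokine that stayed near 1 RPKM. The sequences are from RefSeq (GRCm38.p6, the mouse build also called mm10) and run from 250 bases before to 50 bases after the start site, 5′ to 3′ on the strand of the gene. Capitals mark matches to an NF-kB motif (GGG, any 2 bases, TTTCC) or TGACGTCA (the full CRE, the cyclic AMP response element), searched on both strands along with the AP-1 motif (TGA, any base, TCA) and TTCNNNGAA (STAT). The windows are chr8:94771930-94772229 (plus) for *Cx3cl1*, chr3:107760420-107760719 (minus) for *Csf1*, chr10:75860228-75860527 (minus) for *Mif* and chr5:90890995-90891294 (plus) for *Cxcl1*.
Cx3cl1: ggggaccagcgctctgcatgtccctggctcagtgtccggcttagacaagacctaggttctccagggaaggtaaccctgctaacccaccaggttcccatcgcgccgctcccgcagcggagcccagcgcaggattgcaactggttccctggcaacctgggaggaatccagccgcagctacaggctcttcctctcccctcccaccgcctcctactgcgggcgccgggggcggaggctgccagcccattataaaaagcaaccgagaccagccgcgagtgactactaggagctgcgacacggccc
Csf1: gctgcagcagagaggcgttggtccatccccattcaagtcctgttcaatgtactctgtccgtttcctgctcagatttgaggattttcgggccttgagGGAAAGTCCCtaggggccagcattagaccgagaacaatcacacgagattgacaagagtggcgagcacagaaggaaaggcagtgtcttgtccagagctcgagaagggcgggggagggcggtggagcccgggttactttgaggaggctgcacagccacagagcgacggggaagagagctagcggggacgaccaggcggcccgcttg
Mif: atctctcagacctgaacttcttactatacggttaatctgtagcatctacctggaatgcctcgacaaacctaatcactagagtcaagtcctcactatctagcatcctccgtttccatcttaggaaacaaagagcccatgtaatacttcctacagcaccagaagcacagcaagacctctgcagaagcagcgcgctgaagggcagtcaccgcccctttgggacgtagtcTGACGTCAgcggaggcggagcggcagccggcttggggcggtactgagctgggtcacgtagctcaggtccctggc
Cxcl1: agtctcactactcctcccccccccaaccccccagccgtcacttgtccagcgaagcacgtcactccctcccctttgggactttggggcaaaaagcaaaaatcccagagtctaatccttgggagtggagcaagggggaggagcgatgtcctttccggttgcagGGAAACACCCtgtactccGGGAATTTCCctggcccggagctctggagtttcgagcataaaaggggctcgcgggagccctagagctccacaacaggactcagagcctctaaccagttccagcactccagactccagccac
The *Csf1* window holds 1 NF-kB match, GGAAAGTCCC, from 154 bases before the start site. The *Cxcl1* window holds 2, GGAAACACCC and GGGAATTTCC, from 89 and 71 bases before it. The *Mif* window holds 1 CRE match from 24 bases before its start site, and the *Cx3cl1* window holds none of the 4 motifs. Of the expressed members 24 had windows, 32 in all, of which 5 held an NF-kB match, 5 an AP-1 match, 1 a CRE match and 1 a STAT match. Over all 32851 windows in the RefSeq table the shares were 1.63%, 7.81%, 1.79% and 8.3%, and over the 10222 windows of expressed genes 1.72%, 4.79%, 3.28% and 6.82%. The members without a window were *Ccl2*, *Ccl7*, *Il10rb*, *Il17ra*, *Il34*, *Il7*, *Tnfsf12* and *Tnfsf9*.

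*Ccl2*, the main monocyte-attracting chemokine (chromosome 11, 82035571 to 82037453, plus strand), was lower in *ptgs2*-KO and *ptges*-KO cells. Its values were 64.2, 49.3 and 51.7 RPKM in scramble, 38.7, 41.4 and 39.6 in *ptgs1*-KO, 28.6, 39.8 and 34.9 in *ptgs2*-KO and 30.2, 43.3 and 43.9 in *ptges*-KO samples. All 9 knockout samples lay below all 3 scramble samples, and the knockout lines overlapped one another. The log2 fold change was -0.67 ± 0.15 in *ptgs2*-KO (limma, adjusted p = 0.0123), -0.49 ± 0.15 in *ptges*-KO (adjusted p = 0.0278) and -0.45 ± 0.15 in *ptgs1*-KO cells, where it missed the threshold (adjusted p = 0.0859, and 0.15 without replicate 3). These calls were sensitive to single libraries: the *ptgs2*-KO call was lost without scramble replicate 1 or *ptgs2*-KO replicate 1 (adjusted p up to 0.0612), and the *ptges*-KO call without scramble replicates 1 or 3 or *ptges*-KO replicate 1, and with median ratio scaling or no filter (adjusted p up to 0.114).

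*Il16* (chromosome 7, 83642825 to 83745726, minus strand), which codes for a chemoattractant of CD4+ cells released from a larger precursor, rose in *ptgs1*-KO cells and fell in the other knockout lines. It measured 10.4, 10.5 and 11.6 RPKM in scramble, 18.2, 16.9 and 17.0 in *ptgs1*-KO, 7.94, 6.35 and 6.16 in *ptgs2*-KO and 6.37, 5.10 and 4.50 in *ptges*-KO samples. The *ptgs1*-KO samples were all above and the *ptgs2*-KO and *ptges*-KO samples all below the scramble range. Against scramble cells the changes were 0.63 ± 0.12 (limma, adjusted p = 0.00471, and 0.65 without replicate 3, adjusted p = 0.0136), -0.60 ± 0.12 (adjusted p = 0.00674) and -0.91 ± 0.12 (adjusted p = 0.00016), respectively. *Il11*, a gp130 cytokine, followed part of this pattern at a lower level, with 2.38, 2.44 and 2.21 RPKM in scramble, 3.39, 3.16 and 2.71 in *ptgs1*-KO, 1.10, 1.20 and 1.34 in *ptgs2*-KO and 1.84, 1.51 and 1.51 in *ptges*-KO samples. No 2 of these groups overlapped in *Il11*. It fell by 0.60 ± 0.11 on the log2 scale in *ptgs2*-KO cells (limma, adjusted p = 0.00489) and by 0.35 ± 0.11 in *ptges*-KO cells (adjusted p = 0.0355), and its difference in *ptgs1*-KO cells was 0.29 ± 0.11 (adjusted p = 0.144, and 0.0832 without replicate 3). The *ptges*-KO call for *Il11* was lost under quantile normalization and without any 1 of the scramble replicates, *ptgs2*-KO replicate 2 or *ptges*-KO replicates 2 or 3 (log2 fold change -0.51 to -0.19, adjusted p up to 0.201).

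*Tnfsf12*, which codes for the TNF-family ligand TWEAK (chromosome 11, 69686250 to 69695849, minus strand), was nearly lost in *ptgs1*-KO cells. The values were 4.56, 5.81 and 4.57 RPKM in scramble, 3.14, 3.91 and 4.56 in *ptgs2*-KO and 4.99, 4.85 and 4.38 in *ptges*-KO samples, but 0, 0 and 0.15 in *ptgs1*-KO samples. The 3 *ptgs1*-KO samples stood far below the other 9, among which the groups overlapped. The log2 fold change was -2.51 ± 0.14 (limma, adjusted p = 7.3e-08), -2.57 without replicate 3 and -5.22 with a pseudocount of 0.1, since a pseudocount of 1 compresses the change of a gene at this level. Of the neighbors, *Senp3* was 75.4 ± 2.31 RPKM in scramble and 76.7 ± 4.99 in *ptgs1*-KO samples, *Polr2a* 266 ± 20.0 and 217 ± 21.6, and Chrnb1 57.1 ± 2.33 and 40.3 ± 4.04 (log2 fold change -0.50, limma, adjusted p = 0.00378). *Tnfsf13*, which codes for APRIL and lies beside *Tnfsf12*, was silent, with 0.28 ± 0.0529 and 0.13 ± 0.02 RPKM, and the read-through gene *Tnfsfm13* spans both in the GENCODE M21 annotation, so reads there may have been split. *Tnfrsf12a*, the TWEAK receptor, named here after its values were seen, was abundant at 370.4 ± 37.8 RPKM in scramble and 322 ± 54.0 in *ptgs1*-KO samples. *Tnfsf9*, the ligand of 4-1BB on T cells, passed no test against scramble cells, and was higher in *ptgs2*-KO than in *ptgs1*-KO cells by 0.42 ± 0.10 (limma, adjusted p = 0.00776, and 0.39 without *ptgs1*-KO replicate 3).

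The 7 expressed members under the filter had levels of about 1 RPKM or less in most samples. *Cxcl10*, a chemokine induced by interferon, was 0.11, 0.29 and 0.12 RPKM in scramble, 1.15, 1.13 and 1.16 in *ptgs1*-KO, 0.53, 0.50 and 0.32 in *ptgs2*-KO and 0.06, 0.33 and 0.26 in *ptges*-KO samples. *Il7*, a lymphocyte survival factor, was 0.54, 0.69 and 0.33 in scramble, 1.89, 0.95 and 1.62 in *ptgs1*-KO, 0.05, 0.02 and 0.07 in *ptgs2*-KO and 0.38, 0.59 and 0.50 RPKM in *ptges*-KO samples. *Il17d* was 0.15, 0.37 and 0.52 in scramble, 0.65, 0.56 and 0.87 in *ptgs1*-KO, 0.18, 0.45 and 0.15 in *ptgs2*-KO and 1.13, 1.04 and 1.11 RPKM in *ptges*-KO samples. The *ptgs1*-KO samples were highest for *Cxcl10* and *Il7* and the *ptges*-KO samples for *Il17d*, which is how these genes reached 1 RPKM. For *Il7* the *ptgs2*-KO samples lay below all others. *Il15ra*, the receptor chain that presents interleukin-15, was 0.81, 0.39 and 1.22 RPKM in scramble, 1.04, 1.24 and 1.35 in *ptgs1*-KO, 0.35, 0.71 and 0.67 in *ptgs2*-KO and 0.32, 0.24 and 0.20 in *ptges*-KO samples. *Cxcl10*, *Il7*, *Il15ra* and *Il4i1* counted as expressed through the *ptgs1*-KO samples and *Il17d* through the *ptges*-KO samples, so no test is given of a rise in that line. In a fit with no filter, comparisons without that line gave -0.53 ± 0.13 for *Il7* in *ptgs2*-KO (limma, adjusted p = 0.0398), and in *ptges*-KO cells -0.39 ± 0.07 for *Il4i1* (adjusted p = 0.00312) and -0.50 ± 0.15 for *Il15ra* (adjusted p = 0.0473), on the log2(RPKM + 1) scale against scramble. *Ccl7* and *Cxcl1* overlapped in all comparisons with scramble cells.

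The receptors were led by chains of the IL-1 receptor family, of which *Il1rap* changed most. *Il1rap*, the shared accessory chain of the receptors for interleukin-1, interleukin-33 and interleukin-36 (chromosome 16, 26581704 to 26730117, plus strand), measured 106, 109 and 102 RPKM in scramble, 159, 165 and 118 in *ptgs1*-KO, 88.8, 93.6 and 79.5 in *ptgs2*-KO and 63.3, 52.9 and 54.5 in *ptges*-KO samples. No groups overlapped, with *ptgs1*-KO highest, then scramble, *ptgs2*-KO and *ptges*-KO. The log2 fold change was -0.89 ± 0.12 in *ptges*-KO cells (limma, adjusted p = 0.00016), 0.46 ± 0.12 in *ptgs1*-KO cells (adjusted p = 0.0271) and -0.28 ± 0.12 in *ptgs2*-KO cells, which missed the threshold (adjusted p = 0.147). The *ptgs1*-KO value was 0.61 without replicate 3 (adjusted p = 0.00173), and the call was lost without any 1 of the scramble replicates, without *ptgs1*-KO replicate 1 or 2, and with no filter (adjusted p up to 0.104). *Il1rl1*, the most abundant receptor member (chromosome 1, 40429570 to 40465415, plus strand), was 352, 358 and 351 RPKM in scramble, 410.2, 413 and 352 in *ptgs1*-KO, 321, 326 and 281 in *ptgs2*-KO and 415, 384 and 368 in *ptges*-KO samples. It was lowest in the *ptgs2*-KO samples and passed no test against scramble cells, where it differed by 0.14 ± 0.09 in *ptgs1*-KO, by -0.20 ± 0.09 in *ptgs2*-KO and by 0.14 ± 0.09 in *ptges*-KO cells on the log2 scale. A gene-level value does not separate its membrane and soluble forms.

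*Il18rap*, the accessory chain of the interleukin-18 receptor (chromosome 1, 40515362 to 40551705, plus strand), rose in *ptgs2*-KO cells. It was 29.4, 29.1 and 33.1 RPKM in scramble, 37.7, 34.7 and 30.0 in *ptgs1*-KO, 47.0, 43.9 and 41.6 in *ptgs2*-KO and 37.8, 31.1 and 30.3 in *ptges*-KO samples. The *ptgs2*-KO samples were above all others, and the other groups overlapped. Its rise was 0.52 ± 0.11 on the log2 scale (limma, adjusted p = 0.00707). *Il18r1*, the chain that binds interleukin-18, was silent, with at most 0.087 RPKM in any group mean.

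In the gp130 family, *Il6st* (chromosome 13, 112464070 to 112510086, plus strand) was lower in *ptges*-KO cells. Its level was 202, 224 and 229 RPKM in scramble, 231, 216 and 192 in *ptgs1*-KO, 221, 196 and 164 in *ptgs2*-KO and 167, 129 and 124 in *ptges*-KO samples. The *ptges*-KO samples were below the scramble and *ptgs1*-KO samples and overlapped the *ptgs2*-KO samples. The change against scramble cells was -0.65 ± 0.13 (limma, adjusted p = 0.00273). *Il11ra1*, which binds interleukin-11 and signals through gp130, was 11.0, 13.0 and 9.73 RPKM in scramble, 17.3, 20.7 and 17.5 in *ptgs1*-KO, 15.8, 17.0 and 17.0 in *ptgs2*-KO and 12.2, 12.9 and 14.6 in *ptges*-KO samples. It rose by 0.68 ± 0.11 in *ptgs1*-KO (limma, adjusted p = 0.00168, and 0.72 without replicate 3) and by 0.53 ± 0.11 in *ptgs2*-KO cells (adjusted p = 0.00844). In *ptgs2*-KO cells the ligand *Il11* was therefore lower and its receptor chain higher. *Il11ra1* has near-identical copies in the mouse genome, so its reads may have been split between them. *Il6ra*, the interleukin-6 receptor, passed no test, with group means between 15.9 and 20.6 RPKM.

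**Figure D4:**
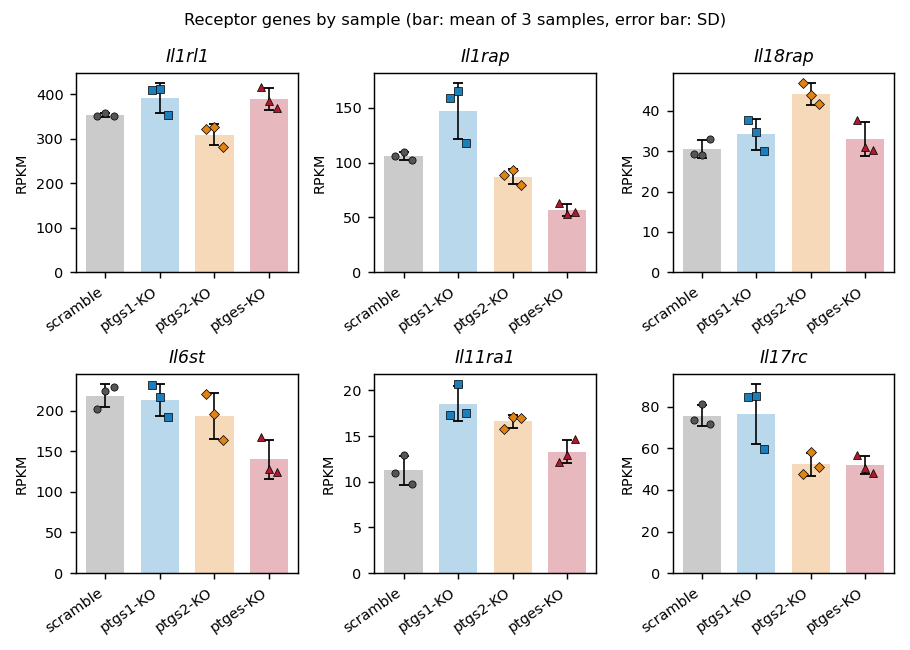
RPKM (vertical, from 0) of 6 receptor genes in the 4 lines (horizontal), with a symbol for each sample, bars for the mean of 3 samples and error bars for the SD. *Il1rap* and *Il6st* are lowest in *ptges*-KO cells, *Il18rap* is highest in *ptgs2*-KO cells, and the *Il1rl1* bars differ little.

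*Il17rc*, a chain of the interleukin-17 receptor (chromosome 6, 113471427 to 113483140, plus strand), was 73.7, 81.3 and 71.9 RPKM in scramble, 84.8, 85.1 and 59.8 in *ptgs1*-KO, 47.5, 58.4 and 51.3 in *ptgs2*-KO and 56.6, 50.6 and 48.2 in *ptges*-KO samples. The *ptgs2*-KO and *ptges*-KO samples lay below all others. It fell by 0.52 ± 0.13 on the log2 scale in *ptgs2*-KO (limma, adjusted p = 0.0188) and by 0.54 ± 0.13 in *ptges*-KO cells (adjusted p = 0.00803), and the former call was lost without scramble replicates 1 or 2 or *ptgs2*-KO replicates 1 or 3 (adjusted p up to 0.0791). *Il17rd*, a related receptor known to restrain growth factor signaling, fell by 0.41 ± 0.13 in *ptges*-KO cells (limma, adjusted p = 0.0353), from 11.2, 12.7 and 12.9 to 10.9, 8.27 and 8.02 RPKM. That call was lost without scramble replicates 2 or 3 or *ptges*-KO replicates 2 or 3, and with no filter (adjusted p up to 0.128). *Il17ra*, the shared chain of the family, passed no test. *Il10rb*, shared by the receptors of the IL-10 family, was 6.09, 5.79 and 6.50 RPKM in scramble, 10.1, 10.0 and 7.66 in *ptgs1*-KO, 9.06, 8.27 and 8.44 in *ptgs2*-KO and 7.93, 7.03 and 8.16 in *ptges*-KO samples. All knockout samples were above all scramble samples. *Il10rb* rose by 0.52 ± 0.11 in *ptgs1*-KO (limma, adjusted p = 0.00998, and 0.64 without replicate 3) and by 0.43 ± 0.11 in *ptgs2*-KO cells (adjusted p = 0.0253), the latter lost without scramble replicates 1 or 2 or any 1 of the *ptgs2*-KO replicates (adjusted p up to 0.0888). The difference in *ptges*-KO cells was 0.29 ± 0.11 (adjusted p = 0.0733). Its partner *Il10ra* was listed at 0 in all samples. *Il4ra*, the receptor chain for interleukin-4 and interleukin-13, was 18.7, 19.9 and 17.9 RPKM in scramble and 14.5, 13.6 and 11.7 in *ptges*-KO samples, a change of -0.48 ± 0.12 (limma, adjusted p = 0.0111) that was lost without *ptges*-KO replicate 3 (adjusted p = 0.0507, the highest over the alternatives).

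Of the decoys and antagonists, only *Il18bp*, which binds and blocks interleukin-18, was expressed, and it was lower in *ptges*-KO cells. Its level was 2.68, 2.12 and 2.25 RPKM in scramble, 2.25, 2.15 and 1.63 in *ptgs1*-KO, 1.97, 1.70 and 1.36 in *ptgs2*-KO and 1.08, 1.25 and 1.14 in *ptges*-KO samples. The *ptges*-KO samples were below all others, and the log2 fold change was -0.63 ± 0.13 (limma, adjusted p = 0.00358). *Il4i1*, an enzyme that oxidizes phenylalanine, had group means of 0.887 RPKM in scramble, 1.19 in *ptgs1*-KO, 0.717 in *ptgs2*-KO and 0.443 in *ptges*-KO samples, and overlaps other genes in the annotation, so its reads may have been split.

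A central question of the study was how loss of mPGES-1 differs from loss of COX-2, its supplier of prostaglandin H2. The values here compare the lines, in which enzyme loss and other line differences cannot be told apart. Between *ptges*-KO and *ptgs2*-KO cells 7 of 25 tested members differed, 2 higher and 5 lower in *ptges*-KO cells, beside 16.6% of all genes tested (6.76% higher and 9.84% lower), and 11 did not overlap, beside 34% of all genes. The count was 4 without *ptges*-KO replicate 2 and 11 without *ptges*-KO replicate 1. In these fits 1104 and 2236 of all genes tested were called, beside 1873 with all samples. Lower in *ptges*-KO cells were *Cx3cl1*, *Csf1* (-0.90 ± 0.10, limma, adjusted p = 4.9e-05), *Il1rap* (-0.61 ± 0.12, adjusted p = 0.00327), *Il6st* (-0.47 ± 0.13, adjusted p = 0.0243, with overlapping samples) and *Il18rap* (-0.41 ± 0.11, adjusted p = 0.0167). Higher were *Mif* (0.43 ± 0.10, limma, adjusted p = 0.00829) and *Il1rl1* (0.33 ± 0.09, adjusted p = 0.0184). The *Mif* call was lost after quantile normalization (adjusted p up to 0.149), the *Il1rl1* call without *ptgs2*-KO replicate 3 or *ptges*-KO replicate 2 (up to 0.0707), and the *Il18rap* call without *ptgs2*-KO replicate 1 or *ptges*-KO replicates 2 or 3 (up to 0.0776). The *Il6st* call was lost without *ptgs2*-KO replicates 1 or 2 or *ptges*-KO replicates 2 or 3, with no filter and with only these lines in the model (up to 0.11). *Ccl2*, *Il34* and *Il17rc*, which were lower than scramble in both lines, had differences of 0.17 ± 0.15, 0.05 ± 0.12 and -0.01 ± 0.13 between them, none past the threshold.

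Counts between *ptgs1*-KO cells and the other knockout lines were close to the 13 of 25 between *ptges*-KO and scramble cells (beside 26.3% of all genes). Against *ptgs1*-KO cells, 14 of 25 members differed in *ptgs2*-KO cells (5 higher and 9 lower, beside 23.6% of all genes, 12.1% higher and 11.6% lower) and 14 in *ptges*-KO cells (3 higher and 11 lower, beside 30.2%, 13.2% higher and 17% lower). The samples did not overlap for 15 and 14 members, beside 35.2% and 40.3% of all genes. Without *ptgs1*-KO replicate 3, 14 members differed in *ptgs2*-KO cells, beside 1019 of all genes higher and 1518 lower. In *ptges*-KO cells 15 differed, beside 1161 of all genes higher and 2148 lower. The calls lost were *Il18rap* in *ptgs2*-KO cells (0.28, limma, adjusted p = 0.0807) and *Tnfsf9* in *ptges*-KO cells (0.30, adjusted p = 0.0546, within a range up to 0.0883). The 4 largest differences in *ptges*-KO cells were in *Tnfsf12* (2.45 ± 0.14), *Cx3cl1* (-2.25 ± 0.11), *Il16* (-1.55 ± 0.12) and *Il1rap* (-1.35 ± 0.12), with limma adjusted p of at most 2.1e-06. In *ptgs2*-KO cells they were in *Tnfsf12* (2.21 ± 0.14), *Il16* (-1.24 ± 0.12), *Il11* (-0.88 ± 0.11) and *Csf1* (0.80 ± 0.10), with limma adjusted p of at most 9.3e-05, followed by *Cx3cl1* (-0.75 ± 0.11) and *Il1rap* (-0.74 ± 0.12). *Il17rd* was lower by 0.47 ± 0.13 in *ptgs2*-KO and 0.78 ± 0.13 in *ptges*-KO cells on the log2 scale than in *ptgs1*-KO samples, which had 17.5, 15.9 and 15.1 RPKM (limma, adjusted p = 0.0191 and 0.00061). The former call was lost without *ptgs1*-KO replicate 1 or *ptgs2*-KO replicate 3 (adjusted p up to 0.0871).

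Several members lie side by side on the chromosomes, and neighbors of 1 family had very unlike levels. In the IL-1 receptor cluster on chromosome 1, *Il1rl1* averaged 361 RPKM over the 12 samples, *Il18rap* 35.5 and *Il1r1* 11.9, while *Il18r1*, between *Il1rl1* and *Il18rap*, averaged 0.067 and *Il1rl2* was listed at 0. In the CC chemokine cluster on chromosome 11, *Ccl2* averaged 42.1 RPKM, *Ccl7* 0.914 and *Ccl11* 0.223, and *Ccl12* and *Ccl1* were listed at 0. In the CXC cluster on chromosome 5, *Cxcl1* averaged 0.984 RPKM and *Cxcl2*, *Cxcl3*, *Cxcl5* and *Cxcl15* were listed at 0.

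**Figure D5:**
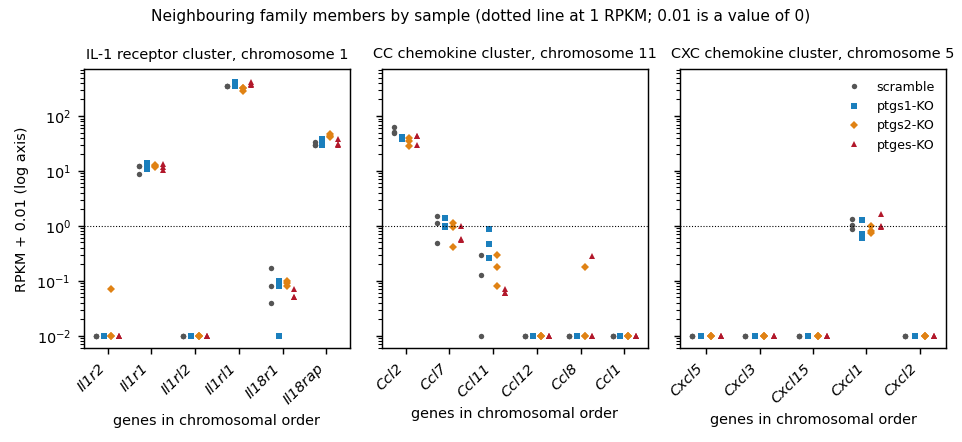
RPKM + 0.01 on a log axis (vertical) of neighboring genes in chromosomal order (horizontal) in 3 clusters, with a symbol for each sample and a dotted line at 1 RPKM. *Il1rl1* stands near 361 RPKM beside *Il18r1* near 0.1. *Ccl2* and *Cxcl1* are the highest of their clusters. *Ccl7* lies near 1 RPKM, *Ccl11* reaches a group mean of 0.523, and the other members of these chemokine clusters are at or near 0.

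Genes of signaling pathways linked to these receptors were counted in each knockout line (*ptgs1*-KO, then *ptgs2*-KO, then *ptges*-KO). Beside them stand the 9.26%, 11.1% and 26.3% of all genes called in the comparisons of these lines, in the same order, with scramble cells. Of 22 tested NF-kB pathway genes, 1 rose in *ptgs1*-KO and 1 in *ptgs2*-KO cells, and 3 rose and 2 fell in *ptges*-KO cells, shares below those of all genes. *Birc3*, an NF-kB target that inhibits cell death, was higher in all 3 lines (1.30 ± 0.13, 1.22 ± 0.13 and 1.03 ± 0.13, limma, adjusted p at most 9.5e-05), and in *ptges*-KO cells *Nfkbiz* fell by 1.01 ± 0.19 (adjusted p = 0.00228) and *Tnfaip3* rose by 0.67 ± 0.18 (adjusted p = 0.0174). Of 16 tested genes of the IL-1 receptor and Toll-like receptor pathways, receptors and adaptors together, 1 rose in *ptgs1*-KO cells (the receptor gene *Tlr4*, 0.39 ± 0.11, limma, adjusted p = 0.0374), 1 in *ptgs2*-KO cells (*Sigirr*, a brake on these receptors, 1.09 ± 0.18, adjusted p = 0.00227) and 0 in *ptges*-KO cells, again below the shares of all genes. Of 20 tested JAK, STAT and SOCS genes, 4 rose and 1 fell in *ptgs1*-KO, 4 fell in *ptgs2*-KO, and 2 rose and 4 fell in *ptges*-KO cells, where 6 of 20 is near the share of all genes. *Socs3*, a feedback inhibitor of gp130 signaling, changed by 0.34 ± 0.09, -0.60 ± 0.09 and -0.78 ± 0.09 (limma, adjusted p = 0.0259, 6.7e-04 and 3.4e-05), and *Socs2* by 1.50 ± 0.16 in *ptgs1*-KO (adjusted p = 4.2e-05) and -0.64 ± 0.16 in *ptgs2*-KO cells (adjusted p = 0.0202). Without *ptgs1*-KO replicate 3 the *ptgs1*-KO values were 1.36 for *Birc3*, 0.49 for *Tlr4*, 0.41 for *Socs3* and 1.53 for *Socs2* (limma, adjusted p at most 0.012), and 6 JAK, STAT and SOCS genes rose and 1 fell, beside 8.93% of all genes.

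Chemokine receptors were mostly silent, with 3 of 23 tested. *Cxcr4*, the receptor of *Cxcl12*, rose from 2.97, 3.10 and 2.24 RPKM in scramble to 12.7, 11.6 and 7.20 in *ptgs1*-KO samples and stood at 1.16, 1.00 and 1.25 in *ptgs2*-KO and 0.99, 1.26 and 0.50 in *ptges*-KO samples. The log2 fold changes were 1.58 ± 0.20, -0.81 ± 0.20 and -0.99 ± 0.20 (limma, adjusted p = 1.7e-04, 0.0178 and 0.00281). Cxcr7, another receptor of *Cxcl12*, was lower in *ptgs1*-KO (-1.12 ± 0.15, limma, adjusted p = 3.5e-04) and in *ptges*-KO cells (-1.21 ± 0.15, adjusted p = 1.0e-04), and *Ccr4* in *ptges*-KO cells (-0.98 ± 0.18, adjusted p = 0.0016). Without *ptgs1*-KO replicate 3 the *ptgs1*-KO values were 1.81 for *Cxcr4* and -1.12 for Cxcr7 (limma, adjusted p = 5.9e-05 and 0.00205). For the lists that follow, the shares of all genes called were again 9.26%, 11.1% and 26.3%. Of 9 tested other cytokine and growth factor ligands, 1 fell in *ptgs1*-KO cells, 1 rose and 3 fell in *ptgs2*-KO cells, and 2 rose and 3 fell in *ptges*-KO cells. *Spp1*, which codes for osteopontin, fell by 0.56 ± 0.12 in *ptgs2*-KO and by 1.13 ± 0.12 in *ptges*-KO cells (limma, adjusted p = 0.00846 and 2.2e-05), and *Kitl*, the ligand of Kit, by 0.40 ± 0.11 and 1.19 ± 0.11 (adjusted p = 0.0273 and 4.8e-06). Of 8 tested TNF receptors, 3 fell in *ptgs1*-KO cells, among them the death receptor *Tnfrsf10b* (-0.73 ± 0.11, limma, adjusted p = 6.4e-04), 0 changed in *ptgs2*-KO cells, and *Tnfrsf21* rose in *ptges*-KO cells (0.57 ± 0.13, adjusted p = 0.00681). Without *ptgs1*-KO replicate 3 only 1 TNF receptor was called in *ptgs1*-KO cells, *Tnfrsf10b* (-0.65, limma, adjusted p = 0.00341), beside 8.93% of all genes.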

How the data were processed

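Poly(A) RNA of 12 samples was sequenced by the authors as 101 bp paired-end reads, and per the labels the build was mm10. The labels name both a TruSeq v2 and a NEXTflex directional kit, and whether counting used strand is not given in the sources used here. The deposited table gives 1 RPKM value per gene and sample, computed by the authors and written to 2 decimals. Aligner, counter and annotation are not given in the sources used here. The values sum to 878504 to 903881 per sample, so nearly equal that a scaling to a fixed total is possible; the study names them RPKM. If they are, from the step between low values the depth was 13500000 to 17200000 reads. Values after ± are the SD of 3 samples or the SE of limma, and both measure spread between samples. Values were tested as log2(RPKM + 1), which understates the change of low genes, with limma (version 3.58.1, R 4.3.3; lmFit, and eBayes with trend) in 1 model of all 12 samples, for the 11282 genes that averaged 1 RPKM or more. Benjamini-Hochberg adjustment covered these genes, and adjusted p under 0.05 was a call. Samples were grouped by their labels, giving 6 pairwise comparisons. On simulated data with these 11282 genes, 97% of genes changed by 1 on the log2 scale in 1 line were called. The changed genes were drawn only from those averaging above about 10 RPKM. The share called among lower genes, or for smaller changes, was therefore not measured. Sample values and statistics were given for members called with non-overlapping samples and for the 10 highest, and up to 4 called genes per pathway list. Members, lists, motifs and tests were chosen with earlier results of these data known. Positions are from GENCODE M21 and sequences from RefSeq. Alternatives covered the pseudocount, filter, scaling, trend, samples in the model, replicate number and each sample left out. Removal of the ribosomal RNA entries was added after seeing the data. Of the marker lists, 6 of 7 T-cell, 5 of 6 keratinocyte and 4 of 5 matched neutrophil genes were under 1 RPKM in all group means. The T-cell sum moved with the lines at a low level, with *Cd3e*, *Cd3d*, *Cd3g* and *Cd2* at 0. It was 0.6 to 0.71 RPKM in scramble, 0.51 to 0.9 in *ptgs1*-KO, 0.05 to 0.33 in *ptgs2*-KO and 1.37 to 1.8 in *ptges*-KO samples. Its part in the results was not tested.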

Additional observations from a re-analysis of the deposited data

Results flagged for a closer look

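The levels of 4 members differed from scramble cells in opposite directions in different knockout lines, each past the threshold against the shared scramble samples. These members were picked for that pattern, so the limma difference between the lines follows largely from the choice. It is given for its size and is not separate support. *Csf1* fell by 0.39 on the log2 scale in *ptgs1*-KO and rose by 0.41 in *ptgs2*-KO cells, a difference of 0.80 (limma, adjusted p = 8.4e-05). It fell by 0.49 in *ptges*-KO cells, a difference of -0.90 from *ptgs2*-KO cells (limma, adjusted p = 4.9e-05). *Il16* rose by 0.63 in *ptgs1*-KO cells and fell by 0.60 in *ptgs2*-KO and by 0.91 in *ptges*-KO cells, with differences of -1.24 (limma, adjusted p = 8.4e-06) and -1.55 (adjusted p = 7.3e-07). *Il1rap* rose by 0.46 in *ptgs1*-KO and fell by 0.89 in *ptges*-KO cells, a difference of -1.35 (limma, adjusted p = 2.1e-06). *Mif* fell by 0.48 in *ptgs1*-KO and rose by 0.41 in *ptges*-KO cells, a difference of 0.89 (limma, adjusted p = 1.8e-05). In each of these cases all 3 samples of a line moved the same way against all 3 scramble samples. Without *ptgs1*-KO replicate 3 the differences from *ptgs1*-KO cells were 0.72 for *Csf1*, -1.25 and -1.56 for *Il16*, -1.50 for *Il1rap* and 0.80 for *Mif*. In that fit *Csf1* was not called in *ptgs1*-KO against scramble cells (-0.31, limma, adjusted p = 0.0827). The *Csf1* calls in *ptgs1*-KO and *ptgs2*-KO cells each held under 18 of 23 settings. The *Il1rap* call in *ptgs1*-KO cells held under 17, and the *Mif* call in *ptges*-KO cells under 22. The other calls behind the pattern held under all 23.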

How the results depend on the processing

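Of 65 member comparisons called, 44 stayed called under all 23 settings, 21 lost the call in at least 1, and 0 changed sign. Of 85 not called, 20 were called under some setting. With no filter on low values, more members are tested. In that fit 11 members were called in *ptgs1*-KO against scramble cells, 22 in *ptges*-KO against *ptgs1*-KO cells and 30 by the F statistic. The number of members tested and the share of all genes called there are not given, so these counts have no background. They cannot be set against the 7, 14 and 19 of 25 in the main fit. Both pairwise counts include *Cxcl10* and *Il7*, and that against *ptgs1*-KO cells also *Il15ra* and *Il4i1*. These genes counted as expressed through the *ptgs1*-KO samples, so their calls are not taken as tests of a rise in that line. Leaving out 1 sample at a time gave 5 to 8, 6 to 11 and 10 to 14 members in the *ptgs1*-KO, *ptgs2*-KO and *ptges*-KO comparisons with scramble cells, 4 to 11 for *ptges*-KO against *ptgs2*-KO, 12 to 14 for *ptgs2*-KO against *ptgs1*-KO, 12 to 17 for *ptges*-KO against *ptgs1*-KO, and 18 to 21 for the F statistic. Over all genes, the *ptgs1*-KO comparison with scramble gave 1045 calls, 582 with a filter at a mean of 10 RPKM, 1570 with quantile normalization and 645 to 1163 with a sample left out. The *ptgs2*-KO comparison gave 1257 calls, 1961 with median ratio scaling and 722 to 1559 with a sample left out (lowest without scramble replicate 1). The *ptges*-KO comparison gave 2969 calls, 1936 to 3282 with a sample left out, and *ptges*-KO against *ptgs2*-KO 1873, 1104 to 2236 (both lowest without *ptges*-KO replicate 2). With a sample left out, *ptgs2*-KO against *ptgs1*-KO gave 2004 to 2840 calls, *ptges*-KO against *ptgs1*-KO 2298 to 3566, and the F statistic 3319 to 4605.

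The share of calls that were higher depended on the setting. When *Rn45s* and *AK155692* were removed, it moved from 50.2% to 62.2% for *ptgs1*-KO against scramble cells. For *ptges*-KO against *ptgs1*-KO cells it then moved from 43.8% to 31.9%. With median ratio scaling it moved from 40.7% to 51.6% for *ptges*-KO against *ptgs2*-KO cells. Without *ptgs1*-KO replicate 3 it moved from 50.2% to 64.8% for *ptgs1*-KO against scramble cells. For *ptgs2*-KO against *ptgs1*-KO cells it then moved from 51% to 40.2%. Removing *Rn45s* and *AK155692* gave 7, 10 and 13 members against scramble cells. Beside them, 846, 863 and 1353 of all genes were called higher and 515, 729 and 1959 lower. No scaling moved the median of all genes by over 0.06 on the log2 scale. With the replicate number as a block, 7 members were called in the *ptgs1*-KO comparison and no member call changed in any comparison. Deviations from the group means correlated between same-numbered samples of different lines at a mean r of 0.0123 (18 pairs, 5 over 0.1, from -0.341 to 0.566). For differently numbered samples the mean was -0.00456 (36 pairs, 12 over 0.1, from -0.475 to 0.321). With both means near 0 the numbers were not taken as pairing, and a shared order in only some lines was not tested. The causes of the shifts between settings were not tested.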
